A study of Mus musculus with 18 samples.

Results

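The 10 genes described here are Psmb8, Psmb9, Psmb10, Tap1, Tap2, Tapbp, B2m, Nlrc5, H2-K1 and H2-D1, which serve the production, transport and loading of peptides on MHC class I molecules. They were chosen by gene symbol in the platform annotation. Of the 10, 9 had a probe set annotated with their symbol alone, out of 22180 genes with such a probe set on the array. H2-D1 shared its only probe set with H2-Q2, so its own level was not measured. The samples were 9 small intestines and 9 livers, each measured on 1 array, from mice with the C57BL/6 genotype that had been germ-free until the age of 5 to 6 weeks. OMT recipients (5 per tissue) then received gut microbiota from old donors, whose age is given as 2 years or about 24 months. YMT recipients (4 per tissue) received microbiota from young donors, which were 4 weeks old by the treatment protocol but 5 to 6 weeks old by the series design. All recipients were followed for 8 weeks and were 12 or 13 weeks old at sampling, depending on the label. Both groups were colonised, and germ-free or conventionally raised mice were not analysed here. Since the labels name neither donors nor cages, what recipients of a group shared through them cannot be told apart from donor age.

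Cells display peptides from their own proteins on MHC class I so that CD8+ T cells can inspect them. The immunoproteasome is a variant of the proteasome in which Psmb8, Psmb9 and Psmb10 replace the catalytic subunits Psmb5, Psmb6 and Psmb7, and interferon-gamma is its best known inducer. The TAP transporter, a dimer of Tap1 and Tap2, carries the peptides into the endoplasmic reticulum, where tapasin (Tapbp) holds it next to class I molecules, which consist of a heavy chain such as H2-K1 and the light chain B2m. Nlrc5 is a transcriptional activator of class I genes that acts through a conserved promoter module, and in the gut epithelium this machinery is known to respond to microbes and to cytokines of intraepithelial lymphocytes.

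Psmb9, Tap1, Psmb8 and Tap2 are adjacent in the class II region of the mouse MHC, in that order in the RefSeq annotation of GRCm38.p6, and Psmb9 and Tap1 are transcribed in opposite directions from 1 short stretch. Start-site windows, 250 bases before to 50 after the transcription start, were held for 8 of the 10 genes in the RefSeq table, with 2 overlapping windows for H2-K1. The sequences below show the start region shared by Tap1 and Psmb9, that of a further immunoproteasome gene (Psmb8), and those of the class I chain genes B2m and H2-K1, where the promoter module used by Nlrc5 is known. The first is the whole stretch of 225 bases between both starts on the plus strand, which Psmb9 reads from the other strand, and the others are the 250 bases before the start on the gene's own strand. Capitals mark the matches to the motifs searched on both strands.
Tap1 and Psmb9, chr17:34187331-34187555, plus strand: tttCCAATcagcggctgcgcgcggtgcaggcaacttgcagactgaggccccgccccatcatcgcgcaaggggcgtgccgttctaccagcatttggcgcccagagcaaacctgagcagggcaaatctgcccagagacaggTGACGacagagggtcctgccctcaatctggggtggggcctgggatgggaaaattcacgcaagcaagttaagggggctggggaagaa
Psmb8, chr17:34197945-34198194, plus strand: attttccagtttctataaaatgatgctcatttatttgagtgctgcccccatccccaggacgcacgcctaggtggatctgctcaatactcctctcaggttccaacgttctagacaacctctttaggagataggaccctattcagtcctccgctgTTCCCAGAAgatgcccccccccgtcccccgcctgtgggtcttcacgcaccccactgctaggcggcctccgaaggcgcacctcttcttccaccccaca
B2m, chr2:122147437-122147686, plus strand: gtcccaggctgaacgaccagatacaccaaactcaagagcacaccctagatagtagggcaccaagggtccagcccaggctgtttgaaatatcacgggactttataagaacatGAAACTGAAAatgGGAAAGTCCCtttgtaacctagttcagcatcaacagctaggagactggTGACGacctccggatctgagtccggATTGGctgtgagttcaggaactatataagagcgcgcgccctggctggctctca
H2-K1, chr17:34000334-34000583, minus strand: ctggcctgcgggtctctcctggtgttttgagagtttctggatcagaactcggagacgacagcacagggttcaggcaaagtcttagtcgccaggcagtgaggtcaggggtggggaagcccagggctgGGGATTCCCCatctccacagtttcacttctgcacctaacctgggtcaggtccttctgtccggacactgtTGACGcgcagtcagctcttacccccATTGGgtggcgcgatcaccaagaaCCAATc

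The motifs were the ISRE core (GAAA, any 2 bases, GAAA), bound by interferon regulatory factors, the GAS core TTCNNNGAA, bound by STAT proteins, the Y box core CCAAT, the X2 box or CRE core TGACG, and the kappa B forms GGGA, any base, TTTCC and GGGAT directly followed by TCCCC. Over all 32851 windows of the table, 3.44%, 8.30%, 37.4%, 20.8%, 0.411% and 0.0852% held them, in this order. The stretch between Tap1 and Psmb9 held 1 CCAAT and 1 TGACG, which begin at -222 and -86 from the start of Tap1. Before its start, B2m held the ISRE core as GAAACTGAAA at -139, the first kappa B form at -126, TGACG at -78 and the reverse of CCAAT at -53. H2-K1 held the second kappa B form at -124, TGACG at -55, the reverse of CCAAT at -30 and CCAAT at -6. In B2m, H2-K1 and H2-D1, TGACG was followed by ATTGG after 20 bases, a spacing that was searched for after the matches had been seen and that 0.0944% of all windows held. It is the order of the X2 and Y boxes in the class I promoter module. In the windows of the immunoproteasome genes that spacing was not found. Psmb8 held only the GAS core, as TTCCCAGAA at -97, and the Psmb10 window held no match to these letters. Matches are descriptions of the sequence and do not show binding. Sites that depart from these letters are not marked, so a window without a match can still hold a variant of the motif.

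**Figure D1:**
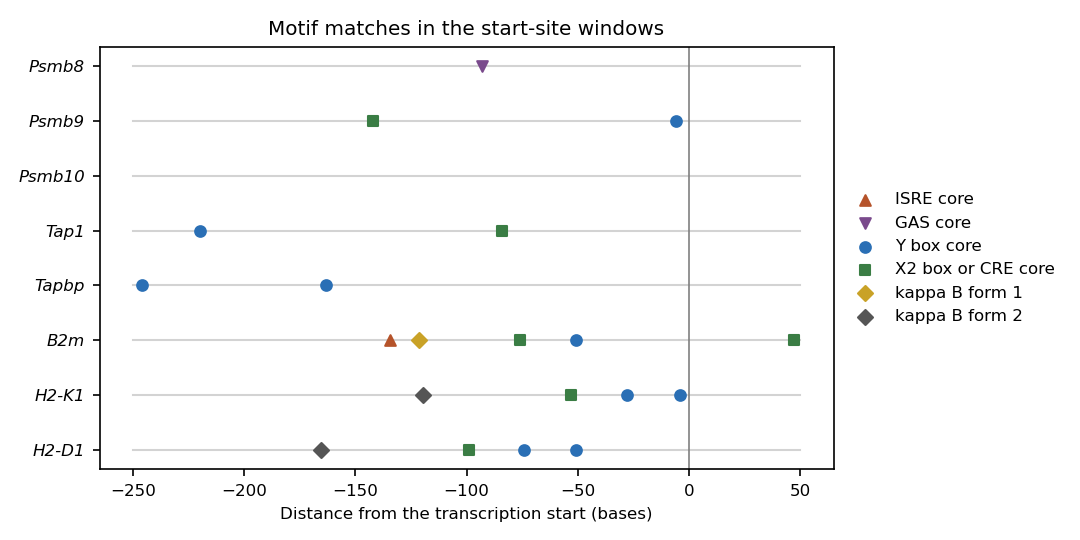
Positions of the motif matches (symbols, defined in the key) in the start-site windows of the 8 genes found in the RefSeq table, with the distance from the transcription start in bases on the horizontal axis and 1 gene per line. The X2 and Y box cores lie at the same spacing in B2m, H2-K1 and H2-D1, and the Psmb10 window holds no match. Variants that depart from the letters searched are not shown.

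The deposited values are log2 array levels after RMA, the normalization described below. The median probe set had a level of 4.39 to 4.51 on the intestine arrays and of 4.12 to 4.22 on the liver arrays. The tissue labels held: albumin (Alb) lay between 13.21 and 13.26 on all liver arrays and villin (Vil1), a brush border protein, between 11.97 and 12.27 on all intestine arrays. In each tissue the OMT arrays numbered 1 and 2 stood apart, by a measure chosen for that tissue. In liver Scd1, a fatty acid desaturase, was at 9.21 and 9.40 on them, at 5.63 to 6.61 on the other OMT arrays and at 12.48 to 12.84 in YMT. In intestine the mean of 75 snoRNA probe sets was 8.24 and 7.78 on them and 6.87 to 7.41 on the other arrays. Whether equal numbers in both tissues are the same mouse cannot be told from the labels. In each tissue the genes tested were those above the median probe set on 4 or more of the 9 arrays, and all 9 measured genes passed this filter on all 9 arrays of both tissues. Differences are OMT minus YMT on the log2 scale with the standard error (SE) of the fit. The test was limma, and its p-values were adjusted by the Benjamini-Hochberg method across every gene tested in the tissue, with a threshold of 0.05. The p-values rest on the spread between recipients, and the number of arrays limits the precision. These are bulk tissues, so fewer cells of a type and less RNA per cell cannot be told apart.

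In the small intestine, all 3 immunoproteasome subunits, both TAP subunits and tapasin had lower levels in OMT recipients, by 1.49-fold to 1.96-fold. B2m, H2-K1 and Nlrc5 were lower by 0.28 to 0.36 on the log2 scale and did not pass the test. Thus 6 of the 9 measured genes fell and none rose, where 3.10% of the 13238 genes tested fell (410) and 1.04% rose (138). With each array centred on the median of the genes tested, 5 of the 9 fell, and 367 genes in all fell and 274 rose. The median difference of the 9 genes was -0.74, and that of all genes tested was -0.02. For 6 of the 9, all 5 OMT arrays lay below all 4 YMT arrays, as they did for 6.84% of all genes tested. The count of 6 dropped to 2 without OMT replicate 2, YMT replicate 2 or YMT replicate 4, to 3 without YMT replicate 3, and to 2 without OMT replicates 1 and 2 together, while the share of all genes called lower dropped to 1.25%, 0.844%, 1.28%, 2.23% and 1.19%. Psmb8 and Psmb10 passed in each of the 22 alternatives run.

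Psmb10, the subunit that replaces Psmb7, stood at 8.90, 9.07, 9.41, 9.07 and 9.23 on OMT replicates 1 to 5 and at 10, 10.18, 10.05 and 10.21 on YMT replicates 1 to 4. The groups were apart by more than the range of either. The difference was -0.97 ± 0.10 (SE; adjusted p = 0.00303), the 11th smallest p-value of all genes tested. Psmb8, which replaces Psmb5, stood at 8.21, 8.36, 8.42, 8.02 and 8.21 in OMT and at 8.86, 9.29, 9.18 and 9.21 in YMT. Again all OMT arrays were the lower ones, and the difference was -0.89 ± 0.11 (adjusted p = 0.0045). Psmb9, which replaces Psmb6, stood at 7.37, 7.36, 7.53, 7.39 and 7.75 in OMT and at 7.79, 8.39, 8.36 and 8.44 in YMT. Here the groups nearly met, since YMT replicate 1 lay only just above OMT replicate 5, and the difference was -0.77 ± 0.14 (adjusted p = 0.0201).

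Tap1, the partner of Psmb9 at the shared start region, stood at 8.24, 8.46, 8.74, 8.57 and 8.95 in OMT and at 8.99, 9.41, 9.47 and 9.45 in YMT. Its difference was -0.74 ± 0.15 (adjusted p = 0.0278), and as for Psmb9 the nearest arrays of both groups were OMT replicate 5 and YMT replicate 1. Tap2, the other chain of the transporter, ranged from 6.12 to 6.56 in OMT and from 6.56 to 7.12 in YMT, so that the groups touched. It fell by 0.58 ± 0.13 (adjusted p = 0.0325), a call that was lost in 11 of 22 alternatives (adjusted p up to 0.138). The call was lost in 6 of 22 for Tap1, in 5 of 22 for Tapbp and in 4 of 22 for Psmb9. Tapbp ranged from 8.73 to 9.53 in OMT and from 9.69 to 10.08 in YMT without overlap, and fell by 0.74 ± 0.15 (adjusted p = 0.0270). The second probe set annotated with Tapbp alone, much dimmer at 4.96 to 5.28, differed by -0.12 with groups that touched at 5.18. A probe set shared by Tapbp and Zbtb22 stood at 6.10 to 6.67 in OMT and 6.27 to 6.51 in YMT, with overlap. The size of the difference thus depends on the probe set.

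B2m stood at 12.19, 12.52, 12.56, 12.44 and 12.54 in OMT and at 12.74, 12.81, 12.82 and 12.78 in YMT. All OMT arrays were lower, but the difference of -0.34 ± 0.09 missed the threshold (adjusted p = 0.0553), and it passed in 7 of 22 alternatives. The highest value of any probe set on the intestine arrays was 13.32 to 13.50, close above the levels of B2m, and what this does to its difference was not tested. H2-K1, a classical heavy chain, ranged from 10.52 to 10.86 in OMT and from 10.80 to 11.10 in YMT, with a difference of -0.28 ± 0.09 (adjusted p = 0.112). Nlrc5, at 5.07 to 5.99 in OMT and 5.42 to 6.25 in YMT, overlapped widely (-0.36 ± 0.20, adjusted p = 0.314). The probe set shared by H2-Q2 and H2-D1 stood at 8.14 to 8.45 in OMT and 8.00 to 8.55 in YMT.

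**Figure D2:**
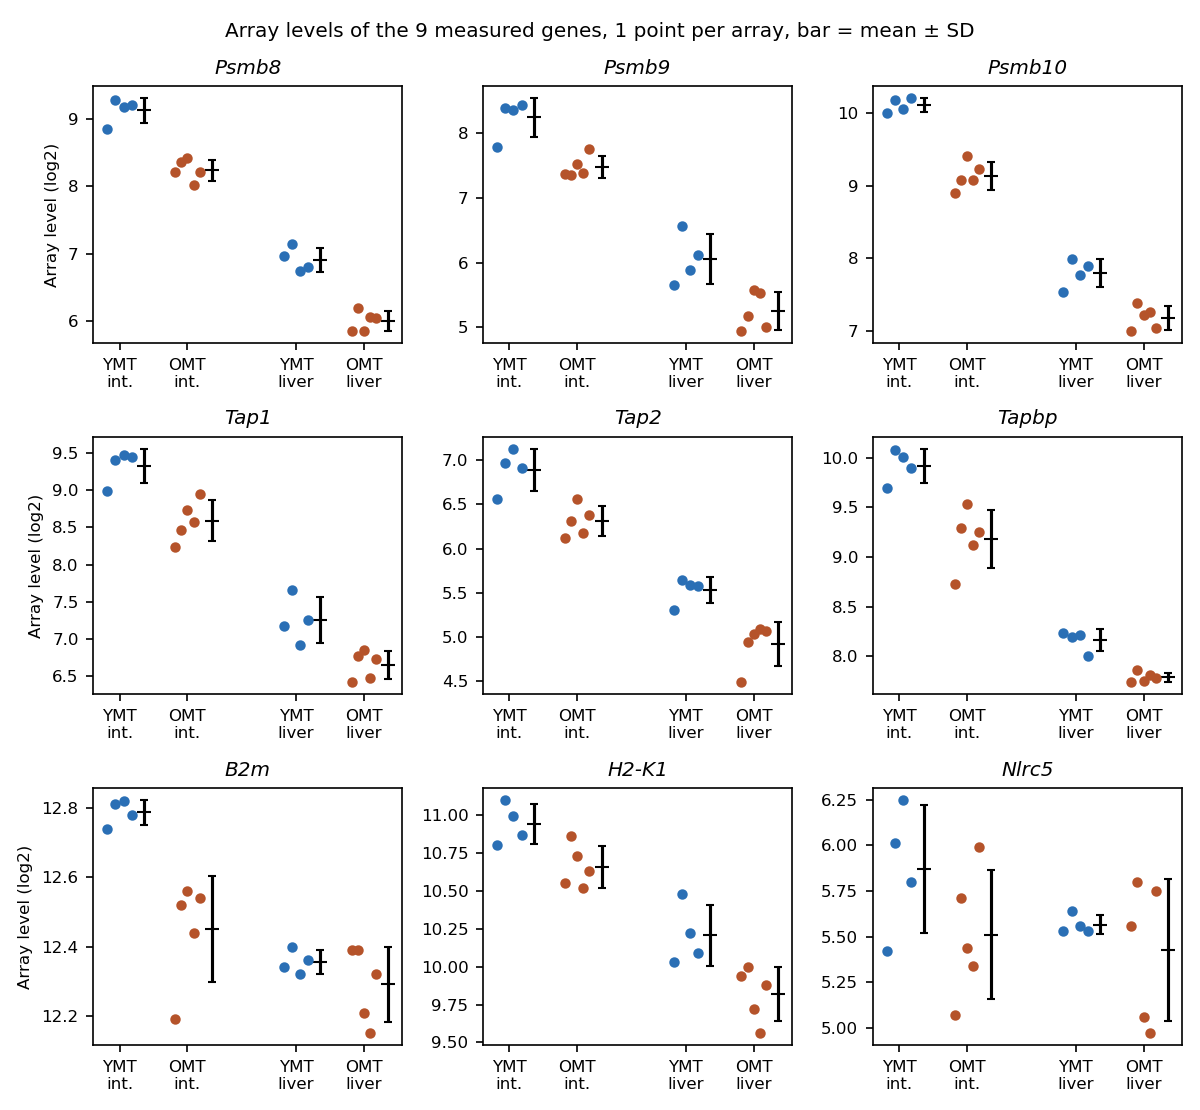
Array levels (log2, vertical axes with a separate scale per gene) of the 9 measured genes in YMT (blue) and OMT (brown) recipients, in small intestine (int.) and liver, with 1 point per array and bars for the mean ± SD. In the intestine the OMT and YMT points of Psmb10 are farthest apart, at 8.90 to 9.41 and 10 to 10.21, while those of Nlrc5 overlap in both tissues.

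The 9 genes varied together among the intestines. On YMT replicate 1 all 9 were at their lowest level of the YMT group, and on OMT replicate 1 this held for 6 of 9 within the OMT group. After each group's mean was subtracted, all 36 pairs of the 9 genes correlated positively over the 9 arrays, with r from 0.31 (Tap1 and H2-K1) to 0.92 (Tapbp and B2m) and a median of 0.68. All pairs share the same arrays and normalization, and pairs of other genes were not examined, so these r are descriptions. The 3 genes outside the set whose levels followed the mean of the 9 genes most closely over the 9 intestine arrays were Cd47, an inhibitory signal to phagocytes (r = 0.98), and the cytotoxic lymphocyte genes Gzmb (r = 0.98) and Ctsw (r = 0.97). These r include the difference between OMT and YMT. With the group means subtracted they were 0.94, 0.91 and 0.90. The genes were picked for their high r among all genes tested, so these r are descriptions too.

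Markers of lymphocytes were also lower in OMT intestines in part. Over all genes tested in intestine, 3.10% fell and 1.04% rose. Of 5 tested markers of cytotoxic lymphocytes Gzmb (-1.43 ± 0.27, adjusted p = 0.0219) and Gzma (-0.96 ± 0.22, adjusted p = 0.0394) fell. Nkg7 (-0.44 ± 0.12) did not pass, and Klrd1 (0.21 ± 0.14) and Prf1 (0.11 ± 0.14) were higher in OMT without passing. The mean level over all 6 markers on the array was 5.98 to 6.49 in OMT and 6.25 to 6.97 in YMT. None of 9 T cell markers passed the limma test, Cd3e being at -0.61 ± 0.16 (adjusted p = 0.0619) and Cd8a at -0.43 ± 0.18, and the mean over the list was 5.98 to 6.39 in OMT and 6.36 to 6.74 in YMT. Of the leukocyte markers none of 6 passed (Ptprc -0.27 ± 0.13), with means of 5.47 to 6.20 and 6.13 to 6.47. Of 2 tested dendritic cell markers Itgax fell by 0.66 ± 0.14 (adjusted p = 0.0296), and Cd209a was higher in OMT without passing (0.53 ± 0.27). No tested marker of B cells (4), plasma cells (2), macrophages (8), endothelial cells (4), fibroblasts (4), enterocytes (6) or hepatocytes (4) passed. The enterocyte list averaged 11.96 to 12.37 in OMT and 11.15 to 12.27 in YMT, and its gene Apoa4 was at 1.41 ± 0.36 (adjusted p = 0.0568). The part of these cells in the differences of the 9 genes was not tested.

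In the liver, all immunoproteasome and TAP subunits, Tapbp and H2-K1 had lower levels in OMT recipients, by 1.30-fold to 1.89-fold. B2m and Nlrc5 did not pass. Thus 7 of the 9 genes fell and none rose, against 8.78% and 10.4% of the 13380 genes tested in liver (1175 and 1388). With quantile normalization these were 1492 and 1156, and again 7 of the 9 fell. The median difference was -0.60, and -0.01 over all genes tested. For the same 7 genes all OMT arrays lay below all YMT arrays, as for 8.51% of all genes. Without OMT replicates 1 and 2, 5 of the 9 fell, and Psmb9 (adjusted p = 0.0654) and Tap1 (adjusted p = 0.0504) did not pass.

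Psmb8 had the largest difference in liver. It stood at 5.84, 6.19, 5.84, 6.06 and 6.04 on OMT replicates 1 to 5 and at 6.96, 7.14, 6.74 and 6.80 on YMT replicates 1 to 4, apart by more than the range of either group. The difference was -0.92 ± 0.10 (adjusted p = 0.000241). Psmb9 stood at 4.94, 5.18, 5.58, 5.53 and 5.01 in OMT and at 5.65, 6.57, 5.89 and 6.12 in YMT. It spread more, with neighbouring values of both groups, and its difference was -0.81 ± 0.19 (adjusted p = 0.0137). Psmb10 stood at 6.99, 7.38, 7.22, 7.25 and 7.03 in OMT and at 7.53, 7.99, 7.77 and 7.89 in YMT, without overlap. Its difference was -0.62 ± 0.11 (adjusted p = 0.00326).

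Tap1 ranged from 6.42 to 6.86 in OMT and from 6.92 to 7.66 in YMT livers and fell by 0.60 ± 0.15 (adjusted p = 0.0155). Tap2 ranged from 4.49 to 5.09 and from 5.31 to 5.64 and fell by 0.61 ± 0.13 (adjusted p = 0.00774). Tapbp, at 7.74 to 7.86 in OMT and 8.00 to 8.24 in YMT, fell by 0.38 ± 0.07. Its spread in the OMT group was the narrowest of the 9 genes in liver, with an SD of 0.05. The dimmer probe set of Tapbp, at 4.35 to 4.66, differed by less than 0.01, and with the mean over both probe sets the gene did not pass (-0.19, adjusted p = 0.0578). The probe set shared by Tapbp and Zbtb22 stood at 4.90 to 5.36 in OMT and 5.20 to 5.56 in YMT, with overlap.

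Of the chains of the class I molecule, H2-K1 fell in liver and B2m did not pass. H2-K1 stood at 9.94, 10, 9.72, 9.56 and 9.88 in OMT and at 10.03, 10.48, 10.22 and 10.09 in YMT, and its difference of -0.39 ± 0.12 was near the threshold (adjusted p = 0.0399) and missed it in 8 of 22 alternatives. B2m stood at 12.39, 12.39, 12.21, 12.15 and 12.32 in OMT and at 12.34, 12.40, 12.32 and 12.36 in YMT, with overlap (-0.06 ± 0.07, adjusted p = 0.588). Nlrc5 overlapped as well (-0.14 ± 0.17, adjusted p = 0.621). OMT livers 3 and 4, at 5.06 and 4.97, held its lowest values, below the YMT range of 5.53 to 5.64, and the other OMT livers lay at 5.56 to 5.80. The probe set shared by H2-Q2 and H2-D1 stood at 5.05 to 5.37 in OMT and 5.14 to 5.54 in YMT.

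**Figure D3:**
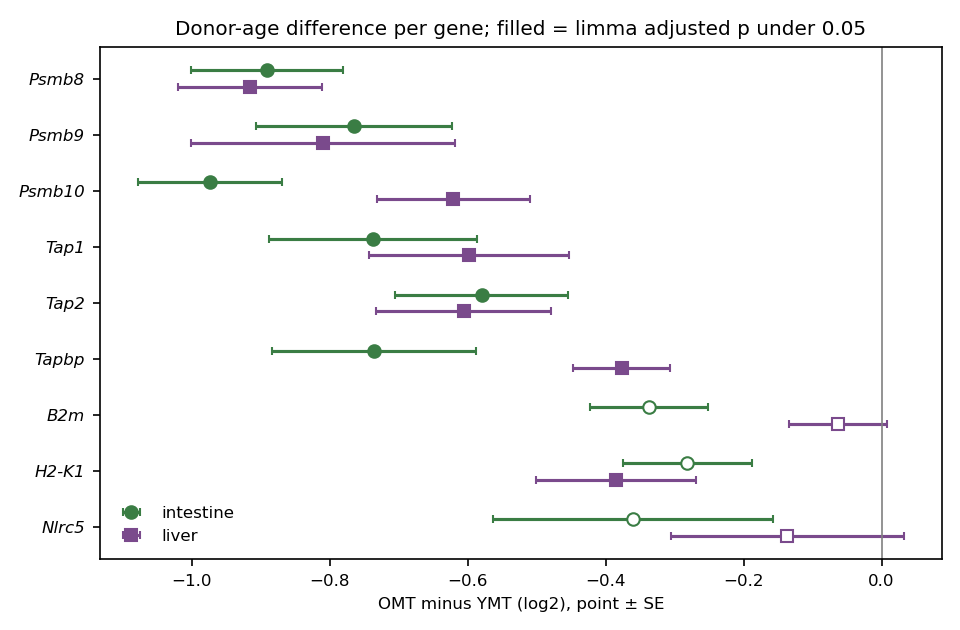
Difference between OMT and YMT recipients (log2, horizontal axis, point ± SE of the limma fit) for each of the 9 genes in intestine (circles) and liver (squares), with filled symbols for an adjusted p under 0.05. The subunits of the immunoproteasome and of TAP lie between -0.97 and -0.58 in both tissues. The differences of B2m and Nlrc5 are smaller and unfilled in both tissues, and so is that of H2-K1 in intestine.

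In the livers, 25 of the 36 pairs of genes correlated positively after the group means were subtracted, with a median r of 0.26 and a range from -0.50 (Tap2 and B2m) to 0.90 over the 9 arrays. YMT replicate 2 held the highest level of its group for 8 of the 9 genes, and 6 genes fell without it. The closest followers of the mean of the 9 genes in liver were Hectd2os (r = 0.98), the class I heavy chain gene H2-Q4 (r = 0.98) and the laminin chain gene Lama1 (r = 0.97). These r include the difference between OMT and YMT, and with the group means subtracted they were 0.87, 0.83 and 0.82.

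In liver most lymphocyte markers did not reach the level filter, and some markers of endothelial cells, macrophages and fibroblasts fell. Over all genes tested in liver, 8.78% fell and 10.4% rose. Cd3e (3.70 to 4.37 over all 9 arrays) and Cd8a (3.44 to 3.91) did not reach the level filter, and Ptprc was at 0.01 ± 0.14. None of the tested leukocyte (5), T cell (3), cytotoxic lymphocyte (2), B cell (2), plasma cell (1) or dendritic cell (2) markers passed. Of 6 endothelial markers 4 fell, such as Cdh5 (-0.75 ± 0.10) and Pecam1 (-0.26 ± 0.08), and the mean over the list was 6.65 to 6.97 in OMT and 7.14 to 7.54 in YMT. Of 9 macrophage markers Clec4f, a Kupffer cell lectin (-0.68 ± 0.09), and C1qc (-0.24 ± 0.07) fell, with list means of 6.41 to 6.70 and 6.73 to 6.93. Of 4 tested fibroblast and stellate cell markers 3 fell, among them Col3a1 (-0.95 ± 0.15), with means over 5 of 5.69 to 5.84 and 5.94 to 6.39. The remaining tested marker, Dcn, was higher in OMT without passing (0.16 ± 0.08), at 9.33 to 9.61 against 9.22 to 9.41 in YMT. None of the 6 hepatocyte markers passed, and their mean was 12.41 to 12.54 in OMT and 12.44 to 12.50 in YMT. Of the enterocyte list 3 genes were tested, and Apoa4, which hepatocytes also express, rose by 2.17 ± 0.23. The part of these cells in the differences of the 9 genes was not tested.

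An interaction term over all 18 arrays, each taken as independent, tested whether OMT and YMT differed by unequal amounts in intestine and liver. None of the 9 genes passed by limma at an adjusted p under 0.05, where 11.9% of the 11959 genes tested passed. Of the 9, 3 had an unadjusted p under 0.05, and the share of all genes at that unadjusted threshold was not counted. The 3 were B2m (intestine difference minus liver difference -0.27 ± 0.11, adjusted p = 0.113), Psmb10 (-0.35 ± 0.16, adjusted p = 0.148) and Tapbp (-0.36 ± 0.17, adjusted p = 0.170). For Psmb8 the value was 0.03 ± 0.16, for Psmb9 0.04 ± 0.25 and for Tap2 0.03 ± 0.19. For Tap1 it was -0.14 ± 0.22, for Nlrc5 -0.22 ± 0.28 and for H2-K1 0.10 ± 0.15. A difference between tissues of the size of these standard errors would not have been detected.

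The constitutive counterparts of the immunoproteasome subunits did not pass in either tissue. In intestine Psmb5 was at -0.06 ± 0.08, Psmb6 at -0.05 ± 0.09 and Psmb7 at -0.22 ± 0.10, and in liver they were at 0.16 ± 0.16, 0.17 ± 0.10 and 0.08 ± 0.08. The unequal change within each array was tested by an exact permutation test of the recipient labels over 126 splits (two-sided, smallest possible p 0.0159), for 3 pairs in 2 tissues, 6 comparisons in all. In intestine the level of Psmb8 minus that of Psmb5 was 0.46 to 1.02 in OMT and 1.15 to 1.78 in YMT, which differ by -0.83 (exact p = 0.0159, 0.0191 adjusted over the 6 comparisons). For Psmb10 minus Psmb7 the difference was -0.75 (exact p = 0.0159, adjusted 0.0191). For Psmb9 minus Psmb6 it was -0.72 (exact p = 0.0317, adjusted 0.0317), where YMT replicate 1 fell among the OMT values. In liver the differences were -1.08, -0.97 and -0.70 for Psmb8, Psmb9 and Psmb10 against their counterparts, each with separate groups (exact p = 0.0159, adjusted 0.0191). The intestinal Psmb9 result did not pass without any 1 of OMT replicates 1 to 4 or YMT replicates 2 to 4 (exact p 0.0571 to 0.0714, differences -0.74 to -0.62). With OMT replicates 1 and 2 both left out the design cannot go below an exact p of 0.0571, and the 6 differences were -1.34 to -0.70.

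**Figure D4:**
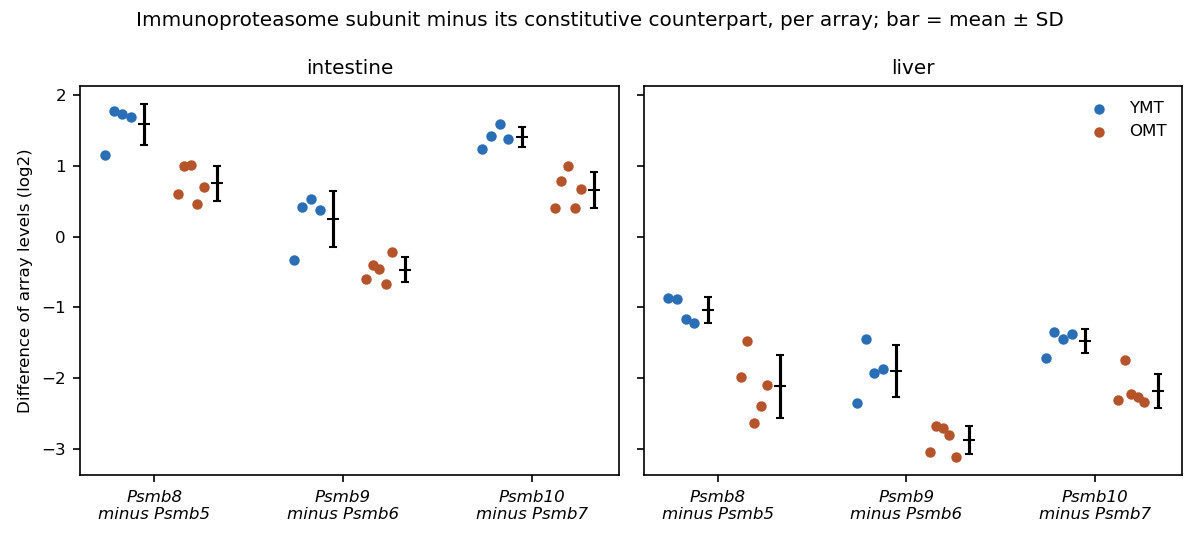
Log2 level of each immunoproteasome subunit minus that of the constitutive subunit it replaces (vertical axis), per array, in YMT (blue) and OMT (brown) recipients of both tissues, with bars for mean ± SD. Only differences between recipient groups can be read, since levels of different probe sets have no common zero; OMT arrays lie lower for each pair, with overlap only for Psmb9 minus Psmb6 in intestine.

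Among genes that work next to the 9, Erap1 and Psme1 fell in both tissues, though without YMT replicate 2 no proteasome activator passed in intestine. The shares of all genes that fell and rose, against which the counts of each list below stand, were 3.10% and 1.04% in intestine and 8.78% and 10.4% in liver. Erap1, the aminopeptidase that trims peptides in the endoplasmic reticulum, fell from 8.88 to 8.90 over the YMT intestines to 8.00 to 8.42 over the OMT intestines (-0.68 ± 0.10, adjusted p = 0.00716), and by 0.28 ± 0.07 in liver (adjusted p = 0.0203). It was the only 1 of 14 tested loading and trimming partners that passed in intestine. In liver 2 of 14 fell, Erap1 and Bcap31 (-0.36 ± 0.07), and 2 rose, Pdia3 (0.63 ± 0.08) and Calr (0.52 ± 0.08), chaperones of the loading complex that also serve general protein folding. The liver counts are near the shares over all genes. The median over the 14 was -0.10 in intestine and 0.04 in liver. Psme1, a subunit of the interferon-inducible proteasome cap, fell by 0.40 ± 0.07 in intestine (adjusted p = 0.0125) and by 0.44 ± 0.10 in liver (adjusted p = 0.00953). Its partner Psme2 was at 0.32 ± 0.08 in intestine (adjusted p = 0.0570) and at -0.28 ± 0.14 in liver (adjusted p = 0.203). Of the 10 activators and assembly factors tested in intestine Psme4 (-0.34 ± 0.07) also fell, and of 9 in liver Psme3 rose (0.31 ± 0.08). Of the constitutive core subunits Psma1 fell in intestine (-0.51 ± 0.08), 1 of 13, and none of 12 passed in liver by limma, where none had an unadjusted p under 0.05.

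Other heavy chains of class I and class I-like molecules fell in part. In intestine 5 of 13 tested fell, against 3.10% of all genes, and none rose (median -0.28): Fcgrt, the receptor that recycles IgG (-0.89 ± 0.17), H2-T23, which presents leader peptides to NK cell receptors (-0.64 ± 0.12), H2-M2 (-1.08 ± 0.21), H2-Q4 (-0.99 ± 0.21) and H2-M3 (-0.41 ± 0.10). In liver 5 of 12 fell, against 8.78% of all genes, among them H2-Q4 (-0.67 ± 0.10), Mr1, which presents microbial vitamin B metabolites (-1.15 ± 0.21), and H2-T23 (-0.66 ± 0.14). There Cd1d1, which presents lipids, rose by 0.63 ± 0.13. The genes of this family are close relatives, so probe sets can detect transcripts of more than 1 of them, and 9 of the 24 listed had no probe set with their symbol alone.

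Known regulators of class I transcription were mixed. Of 24 tested in intestine 2 fell, Socs1, a feedback inhibitor of cytokine signalling (-0.58 ± 0.13), and Irf8 (-0.57 ± 0.13), and none rose. Rfx5, part of the complex that binds the X box, was at -0.45 ± 0.13 (adjusted p = 0.0725), Irf1 at -0.02 ± 0.11 and Ciita, the class II relative of Nlrc5, at -0.12 ± 0.11. Of 23 tested in liver 2 fell, Irf2 (-0.67 ± 0.09) and Jak2 (-0.49 ± 0.12), and 5 rose, including Nfya, a subunit of the factor that binds the Y box (0.60 ± 0.07), Ifnar1 (0.46 ± 0.08) and Stat2 (0.57 ± 0.12). The falls are near the share of 8.78% over all genes tested in liver, and 10.4% of all genes rose. Irf1 (0.14 ± 0.09), Rfx5 (0.16 ± 0.13) and Ciita (-0.12 ± 0.08) did not pass there. Ifng did not reach the level filter in either tissue.

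Interferon-induced GTPases, which share inducers with the immunoproteasome, fell in 3 of 9 in intestine, against 3.10% of all genes, and in 4 of 9 in liver, against 8.78%, and none rose. The intestine count was 8 with all 18 arrays in the fit, 7 with array weights and 7 at a threshold of 0.10. In intestine these were Gbp10 (-1.11 ± 0.17), Irgm1 (-0.94 ± 0.17) and Gbp9 (-0.46 ± 0.09), with a median over the 9 of -1.11. In liver they were Gbp10 (-2.24 ± 0.26), Iigp1 (-0.72 ± 0.10), Gbp3 (-0.69 ± 0.16) and Gbp7 (-0.39 ± 0.11), with a median of -0.42. In the intestine the counts of these lists moved with single arrays and with the processing. With no level filter 3 heavy chains and 0 regulators passed, and with all 18 arrays in the fit or with array weights 4 regulators passed. Without YMT replicate 2 they dropped to 1 GTPase, 0 heavy chains, 0 regulators, 0 activators and 0 core subunits. Without OMT replicate 2 they were 1 heavy chain, 0 regulators and 1 activator, without YMT replicate 3 they were 2, 0 and 1, and without YMT replicate 4 they were 2, 0 and 1 with 1 GTPase. Without YMT replicate 1 they were 2, 1 and 1, without OMT replicate 3 they were 3 heavy chains and 1 regulator, and without OMT replicates 1 or 4 there was 1 regulator. Without OMT replicate 1 there were 2 loading and trimming partners. Without OMT replicates 1 and 2 together there were 0 heavy chains, 0 GTPases, 1 regulator and 1 activator. In liver 2 GTPases passed without YMT replicate 2, and 1 core subunit passed without YMT replicate 1 and 5 passed without OMT replicates 1 and 2.

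**Figure D5:**
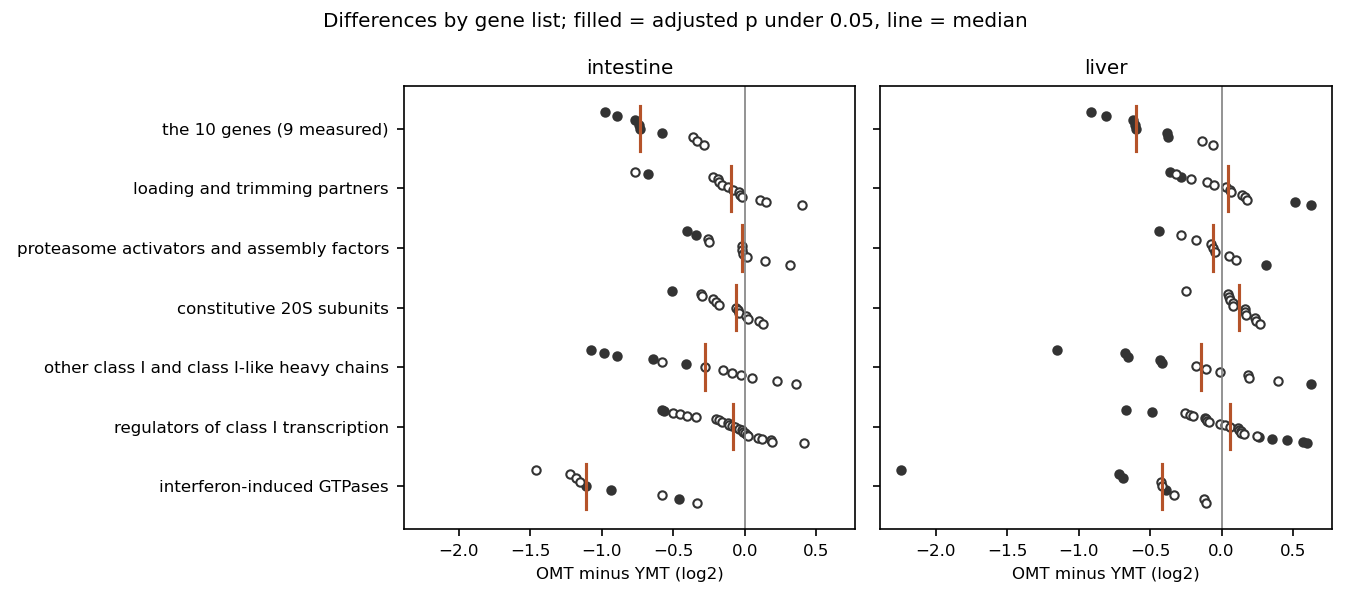
Difference between OMT and YMT recipients (log2, horizontal axes) of each tested gene by list, in intestine (left) and liver (right), with filled points for an adjusted p under 0.05 and a line at each list's median. The 9 measured genes have medians of -0.74 and -0.60, and the constitutive core subunits of -0.06 and 0.12.

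The flanks of the gene cluster were also measured. On the side of Psmb9, its neighbour H2-DMb1, a class II loading gene, fell in intestine by 0.66 ± 0.10 (adjusted p = 0.00862), beside Psmb9, Tap1, Psmb8 and Tap2. On the side of Tap2, H2-Ob was at -0.28 ± 0.19 (adjusted p = 0.409). In liver neither flanking gene reached the level filter. Psmb10 and B2m lie on other chromosomes, 8 and 2.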

How the data were processed

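RNA of 18 tissues was labelled and hybridised to Affymetrix whole-transcript arrays. The deposited table holds log2 levels per probe set, to which the authors applied RMA (Affymetrix Expression Console is named in the submitters' processing notes, without a version). Base 2 was inferred from the range of the values. Whether the tissues were normalized together is not stated, and no level is compared between them. The number of arrays limits the precision.

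Of 41345 probe sets, 23521 had 1 symbol, 1814 had several and 16010 were unnamed here; RefSeq (GRCm38.p6) held 23328 of the 23521. Where a gene had several probe sets, the brightest on average was used. Recipient groups were compared within each tissue with limma 3.58.1 (lmFit, eBayes; two-sided) in R 4.3.3, and the tissues by an interaction on 18 arrays. The fits were tested on simulated data with independent noise per probe set. Recovery was required there only of differences larger than those of the genes described here. Figures used matplotlib 3.10.9.

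The genes and lists were chosen with earlier results of these data known. Named were the 10 genes, Psmb5, Psmb6, Psmb7, Irf1, Rfx5 and Ciita, and up to 4 genes of smallest p past the threshold per pathway list. The 3 genes best correlated with the mean of the measured genes per tissue were named too. Of the markers, Ptprc, Cd3e, Cd8a, Pecam1, Vil1 and Alb were named. For some marker lists, but not for all, the fall or the rise of smallest p was named. Psme2, H2-M3, Jak2, Ifng, Gzma, Nkg7, Prf1, C1qc, Cd209a, Scd1 and the flanking genes were chosen otherwise, after their values were seen. An item of the naming rule is not reported here. Alternatives were the level filter, eBayes settings, all arrays in 1 fit, array weights, scaling, probe set choice, a threshold of 0.10, the replicate number as a block, and arrays left out; centring on the genes tested was added after the data were seen. The replicate numbers did not pair the arrays. P-values rest on the spread between these samples.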

Additional observations from a re-analysis of the deposited data

Results flagged for a closer look

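Within the groups of 4 or 5 arrays, 4 of 36 gene and group combinations held an array far from the others, where chance flags about 1 in 20. The combinations share arrays and are not independent, so no excess over chance can be read from this count. In YMT intestines Psmb9 stood at 7.79 on replicate 1, against 8.36 for the nearest array, and Tap1 at 8.99 on the same array, against 9.41. In OMT livers Tap2 stood at 4.49 on replicate 1, against 4.94 for the nearest. In YMT livers Tapbp stood at 8.00 on replicate 4, against 8.20.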

How the results depend on the processing

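The count of fallen genes in intestine (6) ranged from 2 to 6 when 1 array was left out, was 2 without OMT replicates 1 and 2, and was 5 to 8 under the other alternatives. In liver (7) it was 6 to 7 when 1 array was left out and 5 to 7 otherwise. No gene passed for the difference between tissues in any alternative. With the replicate number as a block, where OMT replicate 5 has no partner, 6 genes fell in intestine and 6 in liver. Under the same block, 0 proteasome activators (2 without it), 6 GTPases (3) and 2 loading and trimming partners (1) passed in intestine. In liver 2 partners (4), 1 activator (2) and 3 heavy chains (6) passed. Same-numbered arrays correlated from -0.06 to 0.32 in intestine and from -0.18 to 0.09 in liver after group means were subtracted, and 1 of 4 YMT arrays per tissue was closest to its own number. The difference between tissues changed sign for values near 0. With 1 array left out it ranged from -0.067 to 0.082 for Psmb8, from -0.13 to 0.18 for Psmb9 and from -0.084 to 0.10 for Tap2. It was -0.022 for Psmb8 with array weights, and without OMT replicates 1 and 2 of both tissues -0.00417 for Psmb9, -0.05 for Tap2 and 0.025 for Nlrc5. In these cases the cause was not tested. Over all genes in intestine, 138 rose and 410 fell, against 211 and 398 with quantile normalization and 274 and 367 with centring on the genes tested. In liver 1388 rose and 1175 fell, against 1156 and 1492 with quantile normalization. None of the 9 genes changed direction within a tissue under any of these. The intestine count of loading and trimming partners was 2 with the stricter filter, all 18 arrays, array weights, array-median centring or a threshold of 0.10. That of regulators (2) was 4 at a threshold of 0.10 and 1 with centring on the genes tested or the mean over probe sets.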
